A study of Mus musculus with 37 samples.

Results

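The Tceal and Bex genes form a cluster on the mouse X chromosome. The genes considered here were Tceal1, Tceal3, Tceal5, Tceal6, Tceal8, Tceal9, Bex1, Bex2, Bex3 and Bex4. They were chosen by the rise of Tceal8 in knockout oocytes of both lines of the study, so the values in those oocytes are a description. No p is given for them, and where genes over the usual thresholds are counted there, the count is no evidence for the choice. Of the 10 genes, 9 were listed in at least 1 of the 4 RNA-seq tables, whose rows number 15855 to 25053. All 9 had a row in the table of ZH germinal vesicle (GV) oocytes and in that of CabZ 2-cell embryos. The table of CabZ GV oocytes listed 4 of them (Tceal8, Tceal9, Bex3 and Bex4), and the table of injected embryos also listed 4 (Tceal8, Tceal9, Bex1 and Bex4). Tceal6 was not analysed here.

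The study removed subunits of the Hira complex, the chaperone that places histone H3.3 in chromatin outside replication, from the growing oocyte of C57BL/6 mice. In the ZH line, Zp3-Cre deletes a floxed Hira gene, and in the CabZ line it deletes floxed Cabin1, which encodes another subunit. Zp3-Cre acts only once the oocyte grows, so the oocyte was formed with an intact gene, and the heterozygous (Het) controls carry the same Cre. Each genotype of either line (Het or KO) was represented by 4 libraries of GV oocytes, and CabZ 2-cell embryos of each genotype by another 4. A further table held 2-cell embryos from wild-type oocytes injected with Zscan4d RNA (Zscan4 OE, 3 libraries) or GFP RNA (4 libraries), which according to the methods were activated without fertilisation. The labels do not say whether the CabZ 2-cell embryos were fertilised. The methods speak of pooled oocytes for each library, whereas the labels speak of individual cells. Nothing says which libraries share an animal, so the spread between them may be partly technical.

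Proteins of both families are small and largely unstructured, and the genes are best known from the nervous system. Tceal genes are named for their likeness to transcription elongation factor A, which helps stalled RNA polymerase II to resume. Bex stands for brain expressed X-linked, and Bex3 was also described as a partner of the p75 neurotrophin receptor that promotes cell death. Tceal9 was earlier known as a binding protein of WW domains. Because the copies arose by duplication, they are not independent of each other.

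The genes lie close together on GRCm38. In the GENCODE M21 annotation, Bex2 begins the run at chrX:136066564-136068236, followed by Bex4 (chrX:136138996-136140443), Tceal8 (chrX:136168984-136172342), Tceal5 (chrX:136200948-136203876), Bex1 (chrX:136213972-136215513), Tceal9 (chrX:136245079-136247139), Bex3 (chrX:136270253-136271978), Tceal3 (chrX:136590842-136668378) and Tceal1 (chrX:136707982-136711478). Tceal6 lies apart at chrX:135208687-135210687. Tceal8, Tceal5, Bex1, Bex2 and Tceal6 are read from the minus strand and the others from the plus strand.

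The start sites share a short element. In the RefSeq promoter windows of GRCm38.p6, which run from 250 bases before to 50 bases after each start, TGACG was followed after 3 to 12 bases by CACGTGA or CATGTGA in 9 of the 10 genes. Both strands were searched, and in all 9 genes the match lay on the gene's own strand. The same pair was found for 38 of 27025 gene symbols (0.141%), these genes among them. It was noticed after the sequences had been read, and it is a match of letters, not a shown binding site. Each line gives the 30 bases from the first motif on, 5′ to 3′ on the strand of the gene, with both motifs in capitals, so that the genes with high values in KO oocytes can be set beside those that were hardly detected.

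Tceal8: TGACGcgatcctCACGTGAccagcagtcga
Tceal9: TGACGtagatctCATGTGAccaggagtcga
Bex3: TGACGcagggccctCACGTGAcccggggct
Bex4: TGACGcaagtggCACGTGActagcccacgc
Bex1: TGACGcaagtggCACGTGActagcccacgc
Tceal5: TGACGttcctgtCACGTGAtcaggagcaga
Tceal1: TGACGcgctcccctCACGTGAccaggagcc
Tceal3: TGACGcggtgttCACGTGAccggccaggcg
Tceal6: TGACGctttgctCACGTGActggcttggtg

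The stretches lie at chrX:136172217-136172246 (Tceal8), chrX:136245076-136245105 (Tceal9), chrX:136270266-136270295 (Bex3), chrX:136138975-136139004 (Bex4), chrX:136215499-136215528 (Bex1), chrX:136203882-136203911 (Tceal5), chrX:136707967-136707996 (Tceal1), chrX:136666366-136666395 (Tceal3) and chrX:135210684-135210713 (Tceal6). In all 9 genes the second motif began within 28 bases of a RefSeq start, from 15 bases before the start of Tceal5 to base 28 of Bex3. The window of Bex2 held TGACG, which 23.0% of symbols have, but neither form of the second motif. CACGTGA alone was in the windows of 8 of the 10 genes and of 4.29% of symbols, and the palindrome CACGTG inside it in 8 and in 8.09%. CATGTGA was found in Tceal9 and in 4.5% of symbols. Of the other motifs searched, GGGCGG was in 8 of the 10 windows (38.2% of symbols), CCAAT in 5 (41.1%), TATAAA only in that of Bex2 (15.7%) and TGATGNAA in 0 (4.51%).

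Tceal8 and Tceal9, the genes with the largest differences in ZH oocytes, shared a run of 17 bases in their windows, AGTCGACGTGTGCAGAA. The motif CGACGTG lies in this run, so both genes hold it by construction. It was found in no other of the 10 windows and in 1.07% of symbols. Because these genes were set side by side by their oocyte values, nothing about the rise is read from this motif. Longer runs joined Bex1 with Bex4 (271 bases) and Bex2 with Bex3 (162 bases). Similar copies can also divide reads. Of all stretches of 50 bases in the transcripts, 49.7% of those of Bex4 occurred in another gene, Bex1 among them, as did 21.1% of those of Bex1, 22.2% of those of Bex2 and 12.3% of those of Bex3. For Tceal3 and Tceal5 the shares were 12.9% and 25.4%. How such reads were divided is not given in the sources used here, so the values of these 6 genes are less certain than those of Tceal8 (0.806%), Tceal9 and Tceal1 (0.0% each).

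Between 5819313 and 21869852 reads per library were counted on the genes of the tables. Values are FPKM, that is reads per kilobase in a library scaled to 1000000 reads, and here the kilobases are those of the whole gene with its introns. Cabin1 was lower in all CabZ KO than in all CabZ Het libraries, at 0.0242 ± 0.0167 against 0.119 ± 0.0312 FPKM in GV oocytes and 0.134 ± 0.0497 against 0.322 ± 0.0979 FPKM in 2-cell embryos (SD, n = 4 each). The difference was not particular to that line, since Cabin1 was also lower without overlap in ZH KO than in ZH Het oocytes (0.0864 ± 0.0175 against 0.286 ± 0.0410 FPKM), as was Hira in CabZ KO against CabZ Het 2-cell embryos (0.0434 ± 0.0196 against 0.233 ± 0.0348 FPKM). Hira had 0 to 14 reads in each ZH library, too few to check the labels. In the embryos labelled Zscan4 OE, Zscan4d reached 70.3 to 84.3 FPKM, within the 69.4 to 149 FPKM of GFP embryos, so the RNA injected was not visible in these values. Oocyte markers (10 of 10 listed) made up 16700 to 30600 RPM (reads in a library scaled to 1000000 reads on the listed genes, in every table) in GV libraries.

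The first question was how far the rise of Tceal8 in KO oocytes was shared by its relatives. In ZH KO oocytes Tceal8, Tceal9 and Bex3 stood above every control library, and in CabZ KO oocytes Tceal8 and, by a smaller step, Tceal9 and Bex3. Tceal8 was barely present in controls. It had 0.300, 0.116, 3.16 and 0.703 FPKM in ZH Het libraries 1 to 4, which rest on 14, 5, 176 and 48 reads. In ZH KO libraries it had 145.5, 88.0, 58.1 and 96.3 FPKM, from 2588 to 7623 reads. The groups were far apart, and Het library 3 alone held most of the control reads. Group means of 96.96 ± 36.3 and 1.07 ± 1.42 FPKM (SD, n = 4) stood in a ratio of 90.6, and the log2 fold change was 5.70 (standard error 0.41). Fold changes here are differences of mean log2(FPKM + 1) between groups and understate the change of genes with low values.

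In the CabZ line Tceal8 gave nearly the same picture. The CabZ Het libraries had 0.501, 0.268, 0.537 and 1.06 FPKM (10 to 38 reads), and the CabZ KO libraries 69.2, 60.1, 114 and 36.6 FPKM (1122 to 3683 reads). No KO library came near the controls, and KO library 4 was the lowest. The log2 fold change was 5.39 (standard error 0.29).

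Tceal9 was also above its controls in both lines, by very different steps. In ZH Het oocytes it had 1.85, 0.265, 0.615 and 1.72 FPKM, and in ZH KO oocytes 42.5, 41.9, 47.5 and 31.8 FPKM. The KO libraries agreed within 1.5 times of each other, and the log2 fold change was 4.38 (standard error 0.26), a ratio of means of 36.8. In CabZ Het oocytes it had 1.21, 0.874, 0.525 and 1.59 FPKM, and in CabZ KO oocytes 4.70, 3.76, 3.19 and 2.93 FPKM. Here too all KO libraries were above all Het libraries, but the ratio of means was 3.48 and the log2 fold change 1.19 (standard error 0.18). The tables were normalised separately and the difference between the lines was not tested.

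**Figure D1:**
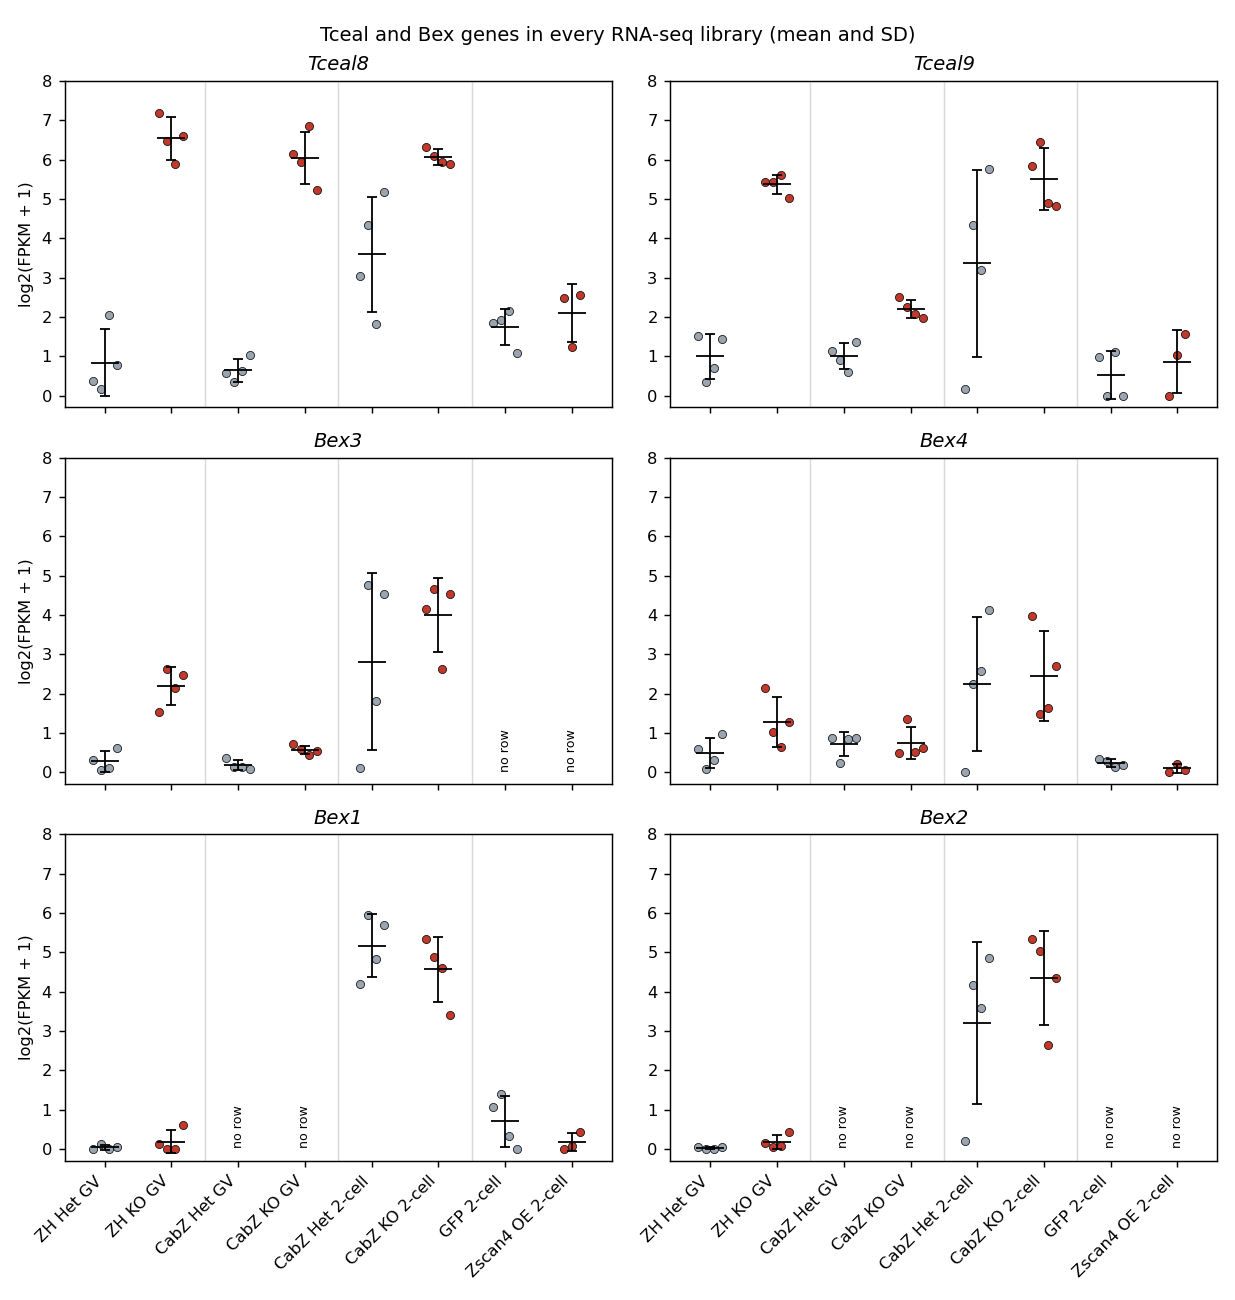
Values of Tceal8, Tceal9, Bex3, Bex4, Bex1 and Bex2 in every RNA-seq library, as log2(FPKM + 1) on the vertical axis, by group on the horizontal axis; points are libraries, bars are the mean and SD, and "no row" marks a table that does not list the gene. Tceal8 is near 0 to 3.16 FPKM in the GV controls and at 36.6 FPKM or more in every KO oocyte library, whereas the CabZ Het 2-cell libraries spread widely for Tceal9, Bex2, Bex3 and Bex4.

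Among the Bex genes of the X chromosome, Bex3 stood apart in ZH KO oocytes at a much lower level. It had 0.250, 0.0451, 0.0699 and 0.542 FPKM in ZH Het libraries (1 to 19 reads) and 1.90, 5.16, 3.41 and 4.59 FPKM in ZH KO libraries (51 to 143 reads). The groups did not overlap, and the log2 fold change was 1.92 (standard error 0.24). In CabZ oocytes Bex3 was at 0.637 FPKM or less throughout, with 6 to 11 reads in KO and 1 to 6 reads in Het libraries. Bex4 overlapped between the groups in both lines. It had 0.497, 0.0538, 0.250 and 0.951 FPKM in ZH Het and 3.41, 1.03, 0.573 and 1.42 FPKM in ZH KO oocytes, with 0.79 as its log2 fold change (standard error 0.31). It averaged 0.666 ± 0.320 in CabZ Het and 0.737 ± 0.565 FPKM (SD, n = 4) in CabZ KO oocytes.

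The other 5 genes listed for ZH oocytes stayed low, most of their single counts at the floor. Bex1 had 0 to 11 reads in each ZH library, Bex2 0 to 8, Tceal5 0 to 4, Tceal3 0 to 4 and Tceal1 0 to 2. Summed by genotype, KO exceeded Het oocytes for all 5 genes, although single libraries overlapped for each. Bex1 came to 13 reads against 3, Bex2 to 13 against 2 and Tceal5 to 8 against 1. Tceal3 came to 4 against 0 and Tceal1 to 3 against 2. Much of this lay in KO library 4, with 11 reads of Bex1 (1.22 RPM) and 8 of Bex2 (0.889 RPM). Most other counts lie at or close to the limit that a count of 0 allows, which is 3 reads, or 0.199 to 0.333 RPM in ZH libraries. A fall of these genes was therefore not detectable at this depth, and none of them reached the read numbers of Bex3 in ZH KO oocytes. Limits of this kind cover counting error only, since reads are not molecules.

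Genes were tested in each table where they averaged 1 FPKM or more over its libraries, and were called at an adjusted p under 0.05 and a fold change over 2 (limma, Benjamini-Hochberg adjustment over all genes tested). Of the 4 Tceal and Bex genes that passed this filter in ZH oocytes, 3 were called higher (10.5% of all genes tested), with a median log2 fold change of 3.15 beside -0.04 over all genes. The same 3 had no overlap between groups with KO higher (23.7% of all genes). In CabZ oocytes both genes that passed, Tceal8 and Tceal9, were called higher (2.07% of all genes) and had no overlap with KO higher (11.2%). These contrasts chose the genes. Bex3 and Bex4 in the ZH line and Tceal8 in the CabZ line passed the filter only through their KO libraries. Nothing is therefore read from these counts or from the median.

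Tceal8 dominated the family. It made up 65.1 to 83.6% of all reads on the listed Tceal and Bex genes in ZH KO libraries and 94.2 to 98.0% in CabZ KO GV libraries. Together the listed genes went from 1.67 to 16.7 RPM in ZH Het to 439 to 883 in ZH KO libraries, and from 3.15 to 8.13 to between 130.7 and 392.1 in the CabZ line. Compared per kilobase of exon, Tceal8 (190 ± 73.3 RPM per kilobase) and Tceal9 (121 ± 18.04) led in ZH KO oocytes and did not differ beyond their spread, and Bex3 (9.95 ± 3.81) and Bex4 (4.18 ± 3.28) followed. In CabZ KO oocytes Tceal8 (91.8 ± 42.7) was well above Tceal9 (7.24 ± 1.56).

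Other cells and stages were checked by their markers. In GV oocytes, 11 of 12 granulosa and cumulus markers listed for the ZH line summed to 51.6 to 63.8 RPM in Het and 57.1 to 111 in KO libraries, with Amhr2 at 0 in Het and Foxl2 and Has2 at 0 in KO libraries. For the CabZ line 8 of 12 were listed, with 56.3 to 72.7 in Het and 99.1 to 145 in KO libraries. Markers of stroma, vessel and blood summed to 27.2 to 34.2 RPM in Het and 14.9 to 27.0 in KO libraries of the ZH line (3 of 8 listed, Ptprc at 0 in Het) and to 14.2 to 27.3 and 11.7 to 19.2 in the CabZ line (2 of 8 listed). The 8 markers of the 2-cell embryo, which include 3 Zscan4 genes and Gm5039, summed to 159 to 224 RPM in ZH Het and 1130 to 1880 in ZH KO oocytes, and to 218 to 236 and 436 to 527 in CabZ Het and KO oocytes. The part of these differences in the values of the Tceal and Bex genes was not tested, and in pooled material more cells of a type and more RNA per cell cannot be told apart.

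The genes whose pattern came closest to that of Tceal8 over the 16 GV libraries were sought among the 5331 genes that averaged 1 FPKM or more in both GV tables. Likeness was the root mean square difference of log2(FPKM + 1), each less its Het mean. The measure depends on the size of the KO rise. Tceal8 was chosen by its values in these oocytes, so the list is a description. Closest was Gm5039, itself on the list of 2-cell markers, with a difference of 1.51, followed by Kera (1.78), which encodes a proteoglycan of the cornea, Gm14222 (1.89), Gm45007 (1.94), Ftl1 (2.09), the ferritin light chain, and its pseudogene Ftl1-ps1 (2.14), which may share reads with it. Gm5039 averaged 0.669 FPKM in ZH Het, 34.9 in ZH KO, 1.40 in CabZ Het and 16.6 in CabZ KO oocytes. The paper had already named it among the 2-cell genes raised in both mutants. Kera and Gm45007 passed the filter in both lines only through KO libraries, as did Gm5039 and Gm14222 in the ZH line. Tceal9 came only at place 13, with a difference of 2.29. Even the closest gene thus stood more than a factor of 2 from Tceal8 on average.

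The second question was whether the rise was also present in 2-cell embryos. The genes were chosen by the rise of Tceal8 in oocytes, but earlier results of these data were known at that time. The embryo tests are therefore not fully free of the choice. Tceal8 was higher in CabZ KO than in CabZ Het 2-cell embryos, and none of the other chosen genes passed the test. The CabZ Het 2-cell libraries had 7.26, 19.1, 2.54 and 35.1 FPKM of Tceal8 (68 to 972 reads), and the CabZ KO libraries 79.7, 67.1, 60.6 and 58.7 FPKM (1148 to 1565 reads). All KO libraries were above all Het libraries, and the KO libraries lay close together while Het libraries spread more than 10-fold. KO embryos averaged 66.6 ± 9.49 FPKM (SD, n = 4), 4.16 times the mean of Het embryos, whose SD was 14.5 FPKM, and the log2 fold change was 2.48 (standard error 0.61, 95% interval 1.10 to 3.85, adjusted p = 0.0073 from limma). This call was kept when each library was left out in turn, with adjusted p between 0.0021 and 0.021. With the values of the table as deposited, divided by the gene span once more, the log2 fold change was 0.89 (adjusted p = 0.0024), under the 2-fold limit.

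Tceal9 was higher on average but not called. It had 0.122, 19.3, 8.21 and 53.3 FPKM in Het libraries and 55.9, 87.0, 28.7 and 27.4 FPKM in KO libraries. Het library 4 lay above KO libraries 3 and 4, and Het library 1 held only 2 reads. The log2 fold change was 2.13 (standard error 1.01, 95% interval -0.14 to 4.41, adjusted p = 0.10 from limma). It was called when Het library 4 was left out (2.93, adjusted p = 0.025) and was 1.07 without Het library 1 (adjusted p = 0.18), so these libraries set the size of the difference.

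Bex1, Bex2, Bex3 and Bex4 were well expressed on average in CabZ 2-cell embryos and overlapped between the genotypes. Bex1 had 17.4, 60.6, 27.6 and 50.6 FPKM in Het and 39.8, 28.7, 23.4 and 9.61 FPKM in KO embryos, a log2 fold change of -0.60 (95% interval -1.69 to 0.48, adjusted p = 0.31 from limma). Bex2 had 0.150, 17.2, 11.01 and 27.9 FPKM in Het and 39.7, 31.6, 5.29 and 19.3 FPKM in KO embryos, with a log2 fold change of 1.14 (95% interval -1.04 to 3.31, adjusted p = 0.34). Bex3 had 0.0729, 26.3, 2.54 and 22.3 FPKM in Het and 16.7, 24.3, 5.13 and 22.3 FPKM in KO embryos, with a log2 fold change of 1.18 (95% interval -1.04 to 3.40, adjusted p = 0.33). These intervals are wide and leave room for changes in either direction. Bex4 had 0, 3.77, 4.99 and 16.4 FPKM in Het and 14.7, 1.79, 2.13 and 5.55 FPKM in KO embryos, and its log2 fold change of 0.21 (adjusted p = 0.84 from limma) turned to -0.53 without Het library 1 and to -0.29 without KO library 1.

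**Figure D2:**
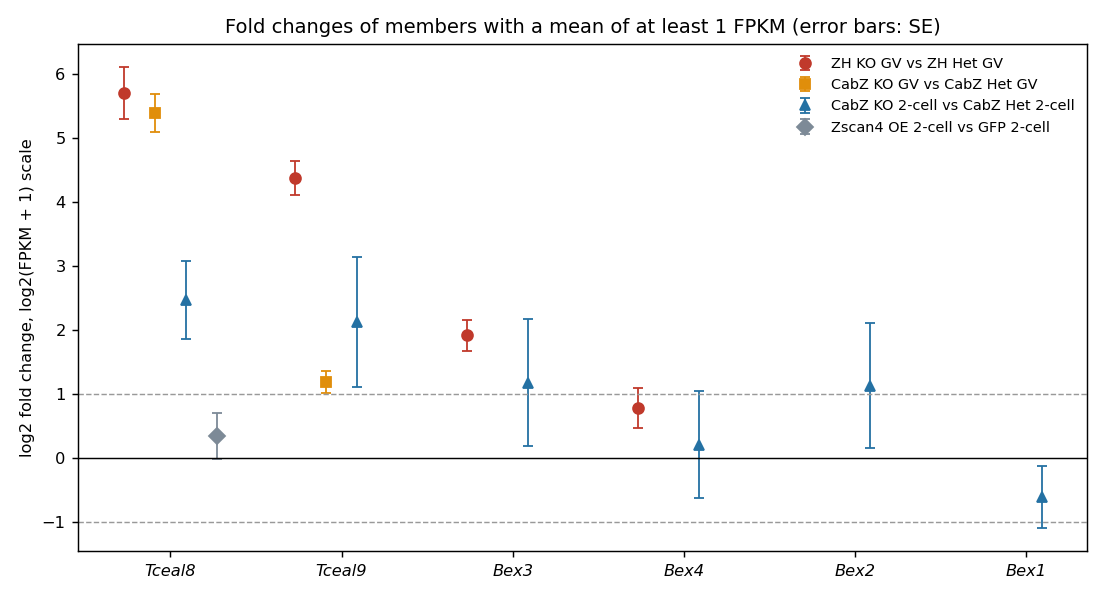
Log2 fold changes on the log2(FPKM + 1) scale (vertical axis) of each gene averaging 1 FPKM or more in a table (horizontal axis), 1 symbol per comparison; bars are standard errors, and dashed lines mark a 2-fold change. Tceal8 is at 5.70 and 5.39 in KO oocytes of both lines, at 2.48 in CabZ KO 2-cell embryos and at 0.34 in embryos labelled Zscan4 OE.

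Tceal1, Tceal3 and Tceal5 stayed under the filter. Tceal5 had 11, 1, 12 and 0 reads in KO and 0, 1, 0 and 0 reads in Het embryos (two-sided exact permutation test, p = 0.14). Tceal1 had 0 to 17 reads (p = 0.71, same exact test) and Tceal3 0 to 23 reads per library (p = 0.97, same exact test), and the smallest p that 4 libraries against 4 allow is 0.0286. Of the 6 chosen genes that passed the filter, 1 was called higher (16.9% of all genes tested) and 0 lower. The median log2 fold change of the 6 was 1.16, beside -0.11 over all genes. Bex2 and Bex3, which set this median, fell to 0.13 and 0.28 without Het library 1, so the median rests largely on that library. Tceal8 was also the only one of the 6 with no overlap between groups and KO higher (22.9% of all genes). The share called is thus not above the background of this table, in which many genes differed.

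Het embryos differed among themselves in a way that touched several genes of the cluster at once. In Het library 1, Tceal9, Bex2, Bex3 and Bex4 had 2, 2, 1 and 0 reads, whereas Tceal8 had 194 and Bex1 213 reads. In Het library 4 the same 6 genes had 317 to 972 reads, apart from Bex4 with 196. The listed genes together gave 52.7, 278, 101 and 416 RPM in Het libraries 1 to 4 and 564, 547, 325 and 347 in KO libraries. Markers of the 2-cell embryo gave 2640, 3260, 1530 and 3440 RPM in the Het and 5860, 5370, 5290 and 1800 in the KO libraries. Markers of stroma, vessel and blood (6 of 8 listed, Dcn at 0 in Het libraries) were at 6.66 to 14.0 in Het and 17.9 to 24.6 RPM in KO embryos, and those of granulosa and cumulus cells (9 of 12 listed, Fshr at 0 in Het libraries) at 66.9 to 103 and 61.9 to 89.7. The KO libraries were also less deep (5819313 to 6330242 reads) than the Het libraries (7947415 to 8239518). The part of these values in the differences above was not tested.

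Set side by side, CabZ Het controls of the 2 stages had quite different levels of the cluster. Per kilobase of exon, Bex1 led in CabZ Het 2-cell embryos with 50.7 ± 26.0 RPM per kilobase (SD, n = 4), followed by Tceal9 (40.2 ± 46.5), Bex2 (26.0 ± 21.5), Bex3 (22.7 ± 23.8), Tceal8 (20.96 ± 19.0) and Bex4 (10.9 ± 12.2), and no neighbours in this order differed beyond their spread. In CabZ Het GV oocytes the highest was Tceal9 with 2.08 ± 0.903, and Tceal8 had 0.774 ± 0.436. The high levels of CabZ Het embryos were not seen in GFP 2-cell embryos. There Tceal8 had 4.87 ± 1.89, Tceal9 1.58 ± 1.83, Bex1 1.48 ± 1.51 and Bex4 0.463 ± 0.208, and Bex2 and Bex3 had no row. In CabZ KO 2-cell embryos Tceal9 (98.8 ± 55.9) and Tceal8 (87.2 ± 12.4) led and did not differ beyond their spread. The mean level of Tceal8 in KO embryos was thus close to the 91.8 ± 42.7 of KO oocytes, although tables were normalised separately and no test was made between stages.

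**Figure D3:**
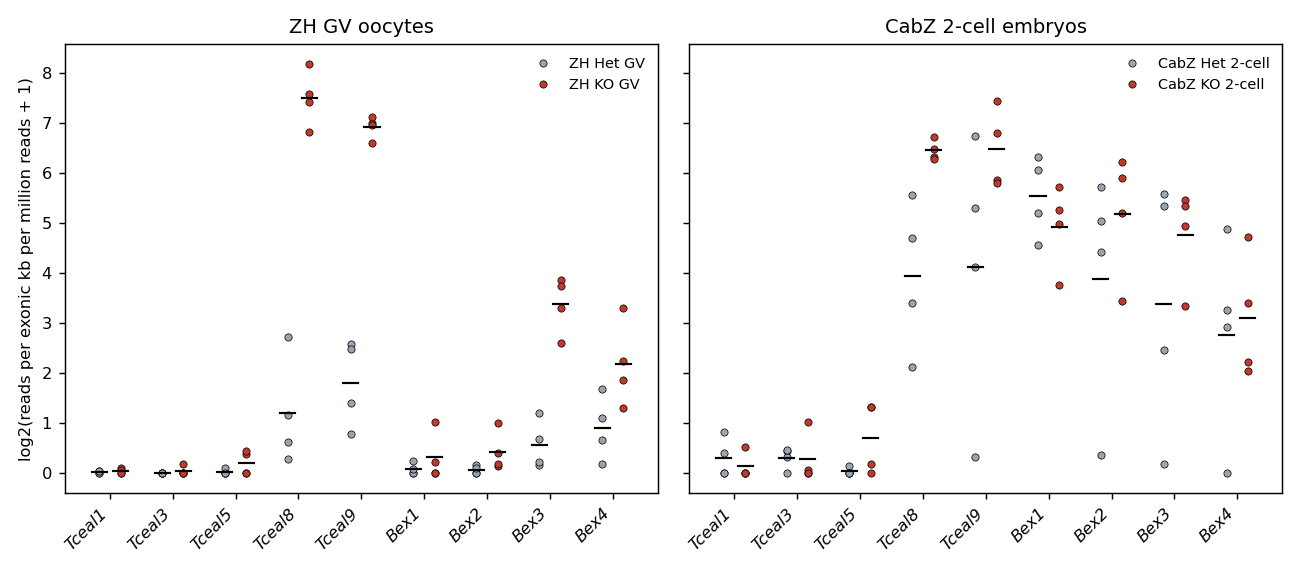
Levels of the 9 listed genes in ZH GV oocytes (left) and CabZ 2-cell embryos (right) as log2(RPM per exonic kilobase + 1) on the vertical axis, by gene on the horizontal axis; points are libraries and lines are group means of the plotted values. In oocytes Tceal8 and Tceal9 stand apart in ZH KO libraries, and in embryos the highest libraries of Bex1 to Bex4 lie above all oocyte libraries, on tables that were normalised separately.

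Embryos labelled Zscan4 OE showed no call in the family. Tceal8 had 4.56, 1.37 and 4.91 FPKM in embryos labelled Zscan4 OE and 2.60, 2.76, 3.44 and 1.12 FPKM in GFP embryos. The groups overlapped, and the log2 fold change was 0.34 (standard error 0.36, 95% interval -0.48 to 1.17, adjusted p = 0.62 from limma). It was the 1 chosen gene past the filter, and 0 were called, beside 1.44% of all genes tested. Markers of the 2-cell embryo summed to 1310 to 3220 RPM in embryos labelled Zscan4 OE and 3350 to 5170 in GFP embryos, and their part in these values was not tested.

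The other 3 genes listed were under the filter. Tceal9 was at 0 reads in GFP libraries B and D and in library A labelled Zscan4 OE, and had 37 to 67 reads elsewhere (difference of log2 means 0.34, p = 0.57, two-sided exact permutation test). Bex1 had 0 to 57 reads in GFP and 0 to 8 reads in libraries labelled Zscan4 OE (p = 0.40, exact test), and Bex4 0 to 12 reads (p = 0.17, exact test). With 3 libraries against 4 the smallest possible p is 0.0571, so these tests could not pass.

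Bex6, a Bex gene on chromosome 16 (chr16:32179823-32186972), had 3.35, 3.84, 3.38 and 3.17 FPKM in CabZ KO 2-cell embryos and 15.97, 10.7, 15.7 and 13.0 FPKM in CabZ Het embryos. It fell by 1.73 on the log2 scale (standard error 0.18, adjusted p = 0.00022 from limma), without overlap, in a table in which 20.4% of genes were called lower. In embryos labelled Zscan4 OE it had 14.0, 4.87 and 10.3 FPKM against 23.4, 24.0, 15.0 and 20.6 FPKM in GFP embryos, a log2 fold change of -1.10 that was not called (adjusted p = 0.12 from limma). In GV oocytes it was low: ZH KO libraries had 8 to 29 reads and ZH Het libraries 0 to 3 (1.26 ± 0.792 and 0.141 ± 0.126 FPKM, no overlap), and CabZ KO libraries 5 to 11 and CabZ Het libraries 0 to 4. Tceal7 was listed only in the CabZ 2-cell table, with 0 to 23 reads per library.

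Neighbours of Tceal8 were also examined. Within 500 kb, 3 genes other than the family were tested in each GV table, and 0 were called in either line. All 3 (Armcx5, Arxes1 and Arxes2) lie before Bex2. They cannot say whether other genes between Bex2 and Tceal1 moved in GV oocytes. Arxes1, which encodes a membrane protein of fat cell differentiation, came near: it had 29.8 ± 1.92 FPKM in CabZ KO and 15.0 ± 1.54 in CabZ Het oocytes (SD, n = 4), a log2 difference of 0.94 that lies just under the 2-fold limit. In ZH oocytes it had 12.2 ± 5.63 and 13.4 ± 0.488 FPKM. In CabZ 2-cell embryos 2 of 5 were called higher and 0 lower, in a table in which 16.9% of all genes were called higher and 20.4% lower. Arxes1 had 14.5 ± 4.04 FPKM in KO and 3.58 ± 1.79 in Het embryos (log2 fold change 1.81, standard error 0.31, adjusted p = 0.0012 from limma), and its copy Arxes2 7.51 ± 5.21 and 1.98 ± 1.59 FPKM (1.49, adjusted p = 0.049), a call that was lost on leaving out any single library other than Het library 3 or KO library 3 (adjusted p between 0.015 and 0.12). The call of Arxes2 was also lost with a pseudocount of 0.1 (adjusted p = 0.10 from limma) and without the filter on low values (adjusted p = 0.14 from limma). Over all genes of the X chromosome outside the family, 225 were tested in ZH oocytes, with 37 called higher and 17 lower (10.5 and 7.2% of all genes). Of 242 in CabZ oocytes the counts were 13 and 4 (2.07 and 0.836% of all genes), and of 387 in CabZ 2-cell embryos 59 and 59 (16.9 and 20.4% of all genes).

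The genes of transcription elongation, for whose factor A the Tceal genes are named, are given as background to the family, and nothing particular to them is read from their counts. In ZH KO oocytes 2 of 19 tested genes were called higher and 3 lower (10.5 and 7.2% of all genes). Elob, an elongin subunit, had 17.4 ± 3.01 FPKM in KO and 3.53 ± 1.21 in Het oocytes (SD, n = 4), and Mepce, which caps 7SK RNA, 9.28 ± 1.22 and 3.80 ± 0.685. Nelfa, a subunit of the negative elongation factor, had 0.597 ± 0.384 FPKM in KO and 2.61 ± 0.513 in Het oocytes, and Gtf2f1, a subunit of TFIIF, 3.97 ± 1.56 and 8.77 ± 1.12. Paf1, of the Paf1 complex, had a log2 fold change of -1.12. In CabZ KO oocytes 0 of 20 were called in either direction (2.07% of all genes were called higher and 0.836% lower). Elob had 17.6 ± 2.91 FPKM in CabZ KO and 9.72 ± 1.10 in CabZ Het oocytes. In CabZ KO 2-cell embryos 1 was called higher and 4 lower of 20 (16.9 and 20.4% of all genes). Supt4a, a subunit of the DSIF elongation factor, fell from 88.0 ± 15.8 to 24.1 ± 4.45 FPKM and Elob from 101 ± 32.8 to 26.1 ± 5.31 FPKM (log2 fold changes -1.83 and -1.88, adjusted p = 0.00024 and 0.00057 from limma), and Nelfe and the kinase Cdk9 fell too (-1.56 and -1.24, adjusted p = 0.0088 and 0.0034 from limma). Mllt3, named after its value was seen as the 1 gene called higher, rose from 1.09 ± 0.305 to 3.45 ± 0.156 FPKM (1.10, adjusted p = 0.0007 from limma). The medians of the list were 0.10, 0.07 and -0.65, beside -0.04, -0.02 and -0.11 over all genes, and in embryos labelled Zscan4 OE 0 of 12 were called.

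Genes of p75 neurotrophin receptor signalling, the pathway in which Bex3 was described, were mostly too low to test. Only 2, 3, 5 and 2 genes passed the filter in ZH oocytes, CabZ oocytes, CabZ 2-cell embryos and embryos labelled Zscan4 OE. The 1 gene called, in a table in which 16.9% of all genes were called higher, was Ripk2, a kinase, with 2.13 ± 0.328 FPKM in CabZ KO and 0.549 ± 0.258 in CabZ Het 2-cell embryos (log2 fold change 1.02, standard error 0.18, adjusted p = 0.0014 from limma).

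Open chromatin at the cluster was read from the ATAC-seq peaks of CabZ GV oocytes, which were called separately in 3 Het and 3 KO libraries. None of the 10 start sites had a peak within 500 bp in any of the 6 libraries, and 0 had one within 2000 bp or at the RefSeq start sites. The lists are of unequal size, from 19160 to 111327 peaks, and 3.74 to 32.2% of all protein-coding genes had a peak at the start (2.53 to 14.0% of those on the X chromosome). No test was made, since 3 libraries against 3 cannot reach a p under 0.1.

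Between Bex2 and Tceal1, a stretch of 644.9 kb, the Het libraries held 0, 2 and 1 peaks and the KO libraries 1, 1 and 3. The peaks nearest to the start of Tceal8 lay 7.74 kb upstream in KO library C (chrX:136179906-136180219, 4.43-fold over background) and 17.9 kb upstream in KO library B (chrX:136190118-136190642, 4.05-fold). In KO library A the nearest was 400 kb away, and in the Het libraries 242 to 314 kb away. The peaks of KO libraries B and C thus lie between Tceal8 and Tceal5, where no Het library had one, but they do not overlap each other and KO library A had none.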

How the data were processed

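RNA-seq values of 31 libraries in 4 tables and ATAC-seq peak lists of 6 libraries were used. According to the methods and the submitters' processing notes, the authors aligned RNA-seq reads with STAR 2.5.3a to GRCm38 (mm10) and computed FPKM in Partek Flow. The ZH and Zscan4 tables were deposited as FPKM, which the values show to be reads over the whole gene span, plus a constant of 0.01 or 0.001. Both CabZ tables were deposited by the authors as scores that had been divided by the span once more. FPKM were restored by taking off the constant, multiplying by the span and scaling to the reads of the library on the listed genes. Reads per gene were recovered from the steps between low values, of which 83.0 to 89.0% came out whole within 0.1 of a read, so no count model was used. For ATAC-seq the authors aligned reads with Bowtie2 2.3 and called peaks with MACS2, and the lists were deposited with scores, fold enrichment ratios and -log10 p and q values. Columns of the authors' comparisons were not used, and 0 columns of other samples were left out.

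The test, applied to each table alone, was limma (3.58.1, under R 4.3.3) on log2(FPKM + 1) for genes averaging 1 FPKM or more, and p-values were adjusted by Benjamini-Hochberg over all genes tested. The paper's thresholds (FDR under 0.05, fold change over 2) were kept, but its Partek GSA test was not available. The design had been written for FPKM in all tables. Genes under the filter were compared in 2-cell tables by exact permutation tests with Python 3.11.15 and scipy 1.17.1. On simulated data made from the control libraries, 99.3% (ZH, 5792 genes), 100.0% (CabZ GV, 6339), 90.7% (CabZ 2-cell, 7798) and 98.7% (Zscan4, 4293) of simulated 4- or 8-fold changes in genes over 10 FPKM were called. The Tceal and Bex genes and the gene lists were chosen with earlier results of these data known. All 10 genes, the targeted genes, 2 relatives, up to 4 genes per list (those called, by size, then those with the highest control level) and the 6 genes closest to Tceal8 were named. Gtf2f1, Mllt3 and Elob in CabZ oocytes were added after their values were seen. Promoter windows came from RefSeq (GRCm38.p6, all 10 genes matched), and positions, exons and transcripts from GENCODE M21.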

Additional observations from a re-analysis of the deposited data

Results flagged for a closer look

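Bex6 differed between KO and Het libraries of the CabZ line in opposite directions at the 2 stages, although it was too low in GV oocytes to pass the filter. In GV oocytes all KO libraries were above all Het libraries (means of 0.104 and 0.0159 FPKM), on only 5 to 11 and 0 to 4 reads per library. In 2-cell embryos all KO libraries were below all Het libraries (means of 3.44 and 13.8 FPKM). The difference between the stages was not tested, because the tables were normalised separately. None of 25 groups of 4 libraries held a library of a Tceal or Bex gene far from the other 3 by Dixon's 95% criterion, by which chance picks out about 1 group in 20.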

How the results depend on the processing

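The number of Tceal and Bex genes called in ZH oocytes, 3 as reported, was between 2 and 4 under other settings (2 with a mean of at least 5 FPKM, 4 with a pseudocount of 0.1 or scaling to table reads). With a mean of at least 5 FPKM, 1 gene was called in CabZ GV oocytes, and with values as deposited 0 were called in CabZ GV oocytes and 0 in CabZ 2-cell embryos. Leaving out 1 library each gave 3 to 3 called in ZH oocytes, 2 to 2 in CabZ oocytes, 1 to 2 (without Het library 4) in CabZ 2-cell embryos and 0 to 0 in embryos labelled Zscan4 OE. Counts over all genes (1023, 184, 2914 and 62) moved more. A pseudocount of 0.1 gave 1645 in ZH and 328 in CabZ oocytes. A mean of at least 5 FPKM, which tests fewer genes, gave 578, 109 and 1650 in ZH oocytes, CabZ oocytes and CabZ 2-cell embryos. Values as deposited gave 9 in CabZ oocytes and 318 in CabZ 2-cell embryos, and no filter gave 5 in embryos labelled Zscan4 OE. Without single libraries the counts were 869 to 1152, 167 to 220, 2680 to 3164 and 18 (without GFP library A) to 100 (without library C labelled Zscan4 OE). Bex4 in ZH oocytes was past the threshold with a pseudocount of 0.1 (1.73) or scaling to the reads in the table (1.01), and it reversed in CabZ 2-cell embryos to -0.53 without Het library 1 and -0.29 without KO library 1, with a range of -0.53 to 0.84 over single libraries left out. Median scaling moved the share of calls that were higher from 59.2 to 42.9% in ZH oocytes and from 45.3 to 60.9% in CabZ 2-cell embryos, and scaling to table reads moved the ZH share to 72.0%. The median over all genes then moved from -0.04 to -0.19 in ZH oocytes and from -0.11 to 0.13 in CabZ 2-cell embryos, while Tceal8 stayed at 2.71 there.

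Same-numbered libraries were not treated as pairs. Their deviations correlated between -0.407 and 0.395, which does not settle whether any of them share an animal. The replicate block left 2 called genes in embryos labelled Zscan4 OE and changed no call of a Tceal or Bex gene, while Arxes2 in CabZ 2-cell embryos was no longer called (adjusted p = 0.06 from limma). The settings for Bex6, Arxes1, Arxes2 and RefSeq start sites were chosen after seeing the data. Low counts limit what can be said of Tceal1, Tceal3 and Tceal5 in both tables that list them.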
